A study of Homo sapiens with 21 samples.

Results

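Aminoacyl-tRNA synthetases are the enzymes that join each amino acid to its matching transfer RNA, the step that sets which amino acid a codon stands for. The 36 genes described here were taken by name from a list and found by symbol in the count table. All 36 were among the 26485 genes counted, and all 36 passed the filter on low counts that left 14018 genes to be tested. By the naming rule of the family, 20 genes without a final 2 encode the enzymes of the cytosol and 16 genes with a final 2 encode enzymes of the mitochondrion.

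Human cells keep separate synthetase sets for the ribosomes of the cytosol and of the mitochondrion, both encoded in the nucleus, and GARS and KARS each supply both places from 1 gene. The enzymes fall into class I and class II by the fold of their catalytic domain. EPRS, a fusion that charges glutamate and proline transfer RNAs, sits with DARS, IARS, KARS, LARS, MARS, QARS and RARS in the multisynthetase complex, held together by the scaffold proteins AIMP1, AIMP2 and EEF1E1. Many cytosolic synthetase genes are known targets of ATF4, a transcription factor made when amino acid shortage or stress of the endoplasmic reticulum activates kinases of the translation factor eIF2.

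The cells were MDA-MB-436, an established breast cancer line that carries a mutated BRCA1 gene. In the first group a lentiviral, doxycycline-inducible hairpin targeted RNF8, a ubiquitin ligase of the DNA break response (shRNF8), and in the second the vector carried a control hairpin (shScr). Polyadenylated RNA was sequenced in 3 shRNF8 and 3 shScr libraries, and hybrids of RNA with DNA were precipitated from sonicated chromatin with the S9.6 antibody (DRIP-seq) in 4 shRNF8 and 2 shScr libraries, and each of these has a partner library treated with RNase. All groups share the line and the medium, no second RNF8 hairpin or rescue is labelled, and nothing says whether libraries came from separate cultures, so that p-values cover the spread between the libraries at hand, which can be technical.

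RNF8 was lower in the cells with its hairpin, at 9.33, 9.99 and 7.94 TMM-scaled CPM, the library-size-corrected count, in shRNF8 against 28.9, 29.1 and 28.003 CPM in shScr. The RNA libraries held between 18121181 and 20006954 counts. VIM and CD44, markers of mesenchymal basal-like breast lines, were high (893 to 1149 CPM and 559 to 588 CPM). Of the same kind, CAV1 lay at 89.4 to 147.7 CPM and TGFBI at only 12.4 to 20.7 CPM. ESR1, PGR, CDH1, PTPRC, CD3E and CDH5, markers of luminal, blood and endothelial cells, were at or near 0. CD79A, a blood marker, reached at most 0.258 CPM and PECAM1, an endothelial marker, at most 0.921 CPM. The luminal markers FOXA1 (3.30 to 5.26 CPM) and GATA3 (1.06 to 1.41 CPM) were detected at a low level. The shScr library numbered 1 stood apart from the other 2 shScr libraries, so results that change without it are given both ways. In bulk samples a difference in the make-up of the cells and a difference in RNA per cell cannot be told apart.

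The cytosolic synthetases were far more abundant in mRNA than the mitochondrial ones. Over all 6 RNA libraries the level per length of the cytosolic genes ran from 18.2 CPM per kb of exon for DARS to 154.9 for FARSA, with a median of 64.6, against 3.76 for FARS2 to 70.1 for IARS2 and a median of 10.2 in the mitochondrial genes, 6.33 times less. FARSA, the catalytic subunit for phenylalanine, was followed by TARS, the threonine enzyme, at 145.0 CPM per kb. At the low end of the cytosolic genes, SARS, the serine enzyme, had 28.3 CPM per kb. Its counts were 131 CPM in shRNF8 and 146 CPM in shScr, over an exon length of 4884 bp. The length is that of all annotated exons of a gene merged, so the order by level depends on the annotation. Of the 20 cytosolic genes, 8 lay above IARS2, the isoleucine enzyme of the mitochondrion and the highest of its compartment. TARS2 at 50.3 CPM per kb was the next highest, and AARS2 at 5.28 CPM per kb was next to FARS2 at the bottom.

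**Figure D1:**
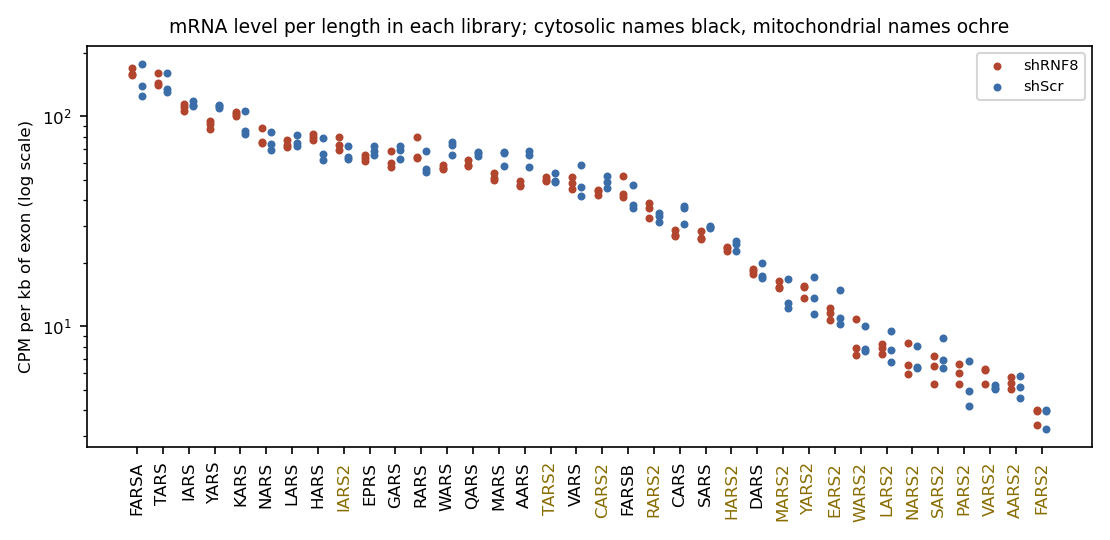
Level of each synthetase mRNA per length in the 3 shRNF8 and the 3 shScr libraries (points; CPM per kb of exon on a log scale), ordered by the mean of all 6 libraries. Cytosolic genes fill the upper end and mitochondrial genes the lower end, with IARS2, TARS2, CARS2, RARS2 and HARS2 standing among the cytosolic ones.

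For 13 amino acids the list held a cytosolic and a mitochondrial gene, and in 12 of these pairs the cytosolic gene had the higher level per length. The ratio had a median of 4.14 and reached 11.2 for NARS over NARS2, the asparagine enzymes. Cysteine was the exception, with CARS at 31.2 CPM per kb against 46.2 for CARS2, a ratio of 0.675. Before division by length the genes were close, with 78.0 CPM in shRNF8 and 98.4 in shScr for CARS and 83.4 and 92.9 for CARS2. The exon lengths were 2827 bp for CARS and 1909 bp for CARS2, so the exception rested on the lengths. CARS, VARS and VARS2 are annotated on more than 1 chromosome sequence in the count table, and their lengths were taken from the primary chromosome. Whether their counts lost reads shared with the other copies was not tested.

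Knockdown of RNF8 was set against the control hairpin to ask whether synthetase mRNA differed. A single member passed the test over all genes: AARS, the alanine enzyme, was lower in shRNF8. Its level was 155.3, 163.9 and 157.9 CPM in shRNF8 replicates 1, 2 and 3, against 190.8, 228.4 and 219.9 CPM in shScr replicates 1, 2 and 3. All 3 shRNF8 libraries lay below all 3 shScr libraries. The means were 159 ± 4.39 CPM in shRNF8 and 213 ± 19.7 CPM in shScr (SD, n = 3 each), a 1.34-fold lower level. The log2 fold change was -0.42 with a standard error of 0.093, and the quasi-likelihood test of edgeR gave an adjusted p of 0.0393 (Benjamini-Hochberg, over all genes). The count of 1 lower and 0 higher of 36 stood beside 1.57% lower and 0.97% higher, 2.54% in all, of the genes tested. The AARS call was close to the threshold: leaving out any library but shScr replicate 1 took it away (adjusted p 0.155 to 0.178 in edgeR), and so did scaling by library size alone (edgeR adjusted p = 0.0536), while without shScr replicate 1 the adjusted p was 0.000164.

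WARS, YARS, MARS and CARS, the cytosolic enzymes for tryptophan, tyrosine, methionine and cysteine, had the next smallest p-values and lay below the control in each library, but did not pass the threshold after adjustment. WARS measured 167.3, 167.6 and 173.1 CPM in shRNF8 against 194.9, 224.6 and 216.6 CPM in shScr, giving -0.32 ± 0.087 as log2 fold change and SE (adjusted p = 0.0750, edgeR). YARS measured 269.9, 286.1 and 294.3 CPM in shRNF8 against 347.8, 352.1 and 340.3 CPM in shScr, giving -0.29 ± 0.082 as log2 fold change and SE (adjusted p = 0.0847, edgeR). Both genes had a gap between the groups, and in YARS shScr replicate 1 sat with the other 2 shScr libraries. MARS measured 157.3, 148.4 and 145.1 CPM in shRNF8 against 169.5, 198.0 and 195.4 CPM in shScr, giving -0.32 ± 0.092 as log2 fold change and SE (adjusted p = 0.0879, edgeR). CARS measured 75.7, 77.2 and 80.9 CPM in shRNF8 against 86.5, 105.5 and 103.4 CPM in shScr, giving -0.34 ± 0.098 as log2 fold change and SE (adjusted p = 0.0934, edgeR). In MARS and CARS, as in AARS and WARS, shScr replicate 1 was the control library nearest to the shRNF8 libraries.

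**Figure D2:**
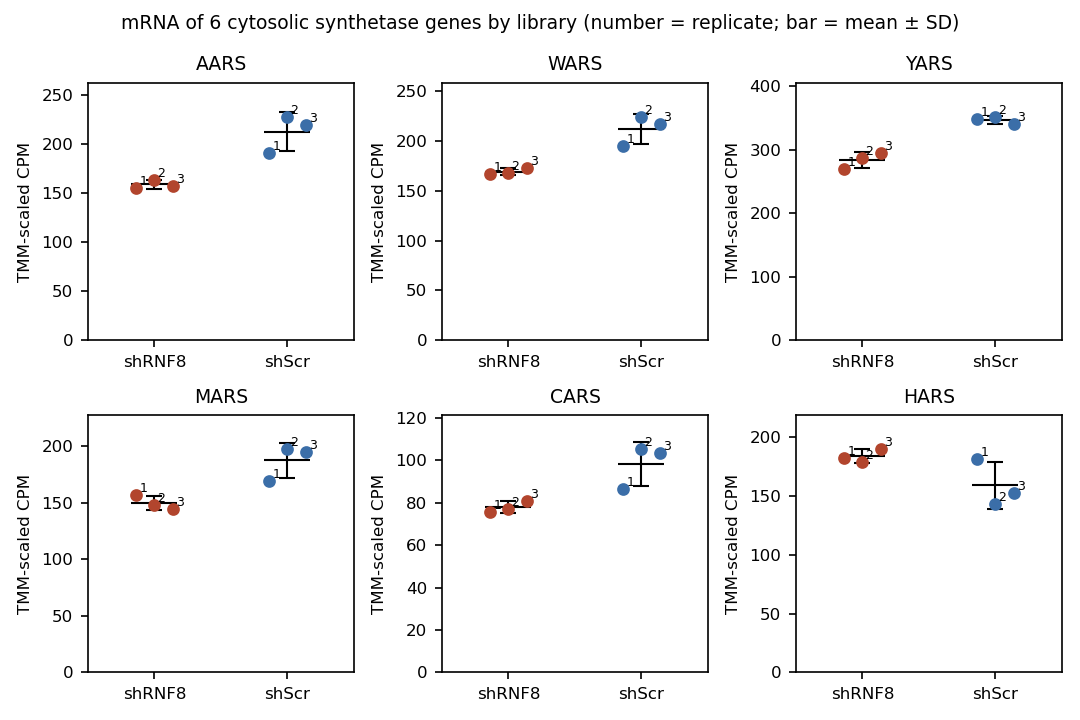
TMM-scaled CPM of 6 cytosolic synthetase genes in each RNA library, with shRNF8 left of shScr, points numbered by replicate and bars for the mean ± SD (n = 3 each). AARS, WARS, YARS, MARS and CARS are lower in every shRNF8 library than in any shScr library, and only AARS passed the test over all genes; in HARS the groups overlap.

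With AARS these made 5 members with an unadjusted edgeR p under 0.05, all 5 lower and none higher, where 11% and 9.03% of all genes tested had such a p in each direction. The DESeq2 Wald test called the same 5 genes lower and 0 higher, against 4.05% of all genes lower and 2.45% higher in that test. Without shScr replicate 1 edgeR also called these 5 lower, with log2 fold changes of -0.49 for AARS, -0.42 for CARS, -0.39 for MARS, -0.38 for WARS and -0.29 for YARS. That fit called 14.3% of all genes lower and 12.8% higher, so the number of calls grew across the table and not in the synthetases alone. The groups did not overlap in 8 members with the lower values in shRNF8, namely these 5 with QARS, SARS and CARS2, and in 1 with the higher values, VARS2. The shares of all genes were 12.8% lower and 12.5% higher.

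HARS, the histidine enzyme, lay on the other side. It measured 182.8, 178.7 and 190.2 CPM in shRNF8 against 181.2, 143.1 and 152.9 CPM in shScr, so that shScr replicate 1 overlapped the shRNF8 libraries (log2 fold change 0.21, SE 0.10, edgeR adjusted p = 0.273). Without that library 8 members were called higher in shRNF8: HARS, RARS, KARS, FARSB and FARSA of the cytosol, and IARS2, MARS2 and PARS2 of the mitochondrion. HARS then had a log2 fold change of 0.32 (edgeR adjusted p = 0.00704), and FARSA, which had 0.14 with all libraries, had 0.30 (edgeR adjusted p = 0.0106). These 8 calls rest on the choice to leave out 1 control library, and none of them was made with all 6.

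**Figure D3:**
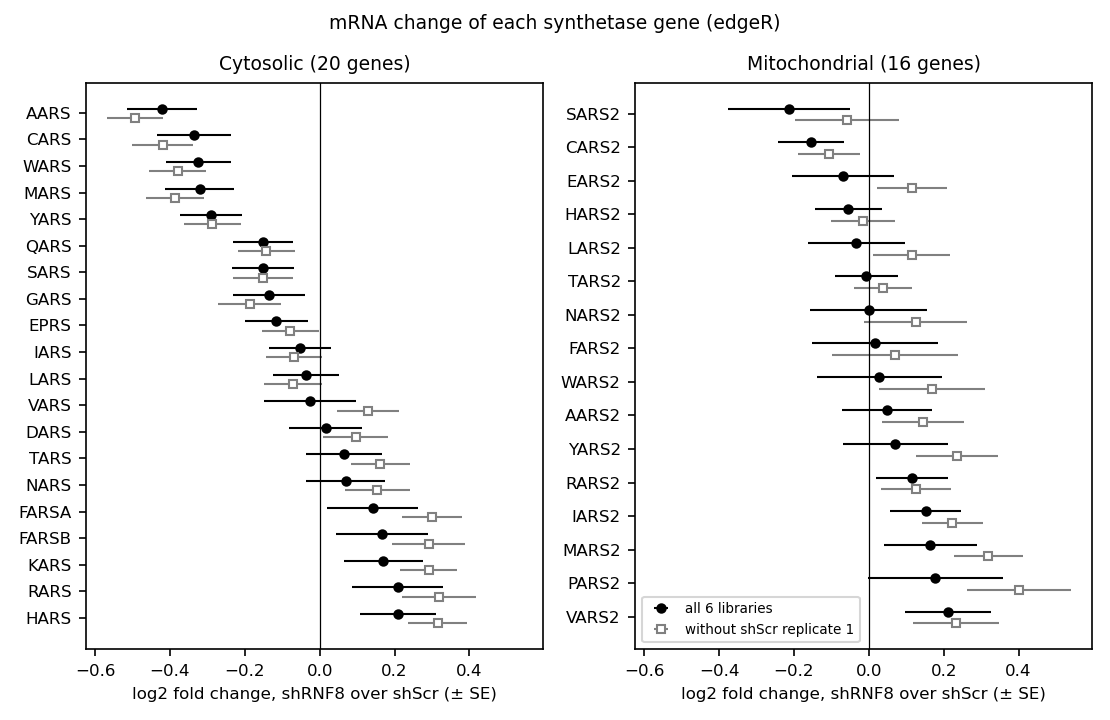
log2 fold change of mRNA, shRNF8 over shScr, with its standard error for the 20 cytosolic (left) and 16 mitochondrial (right) synthetase genes, with all 6 libraries (filled) and without shScr replicate 1 (open). AARS, CARS, WARS, MARS and YARS lie lowest in either fit, while most of the genes at the other end lie further right without that library.

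Of the 16 mitochondrial genes 0 were called by edgeR in either direction, 0 had an unadjusted p under 0.05, and 0 were called by DESeq2. Their log2 fold changes ran from -0.21 for SARS2 to 0.21 for VARS2 (edgeR adjusted p 0.329 to 0.999). VARS2, the valine enzyme, measured 23.2, 23.5 and 19.8 CPM in shRNF8 against 19.6, 19.0 and 18.8 CPM in shScr. CARS2, the cysteine enzyme, measured 84.0, 85.4 and 80.8 CPM in shRNF8 against 98.9, 86.7 and 93.1 CPM in shScr, giving -0.16 ± 0.088 as log2 fold change and SE (adjusted p = 0.351, edgeR). The groups were separated by a narrow gap in both genes. IARS2 averaged 262 ± 18.6 CPM in shRNF8 and 236 ± 19.1 CPM in shScr, and MARS2 averaged 48.4 ± 2.06 CPM in shRNF8 and 43.2 ± 7.55 CPM in shScr (SD, n = 3 each), with overlapping groups in both.

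As a group, the synthetases moved little. The median log2 fold change was -0.045 over the 20 cytosolic genes and 0.022 over the 16 mitochondrial genes, against -0.005 over all genes tested. Set against the mean of the shScr libraries on the log2 scale, the mean level of the mitochondrial genes was 0.043, 0.019 and 0.038 in shRNF8 replicates 1, 2 and 3 and 0.19, -0.096 and -0.094 in shScr replicates 1, 2 and 3. The shRNF8 libraries lay between shScr replicate 1 and the other 2 shScr libraries. The same measure over the cytosolic genes was -0.090, -0.091 and -0.006 in shRNF8 and 0.058, -0.023 and -0.035 in shScr, again with overlap. Without shScr replicate 1 the medians were -0.070 and 0.126.

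Within the cytosolic set the lower values gathered in class I. Of its 9 genes 8 had a log2 fold change below 0, where 50.8% of all genes tested did. The median was -0.15 over the 9 genes, while the 10 genes of class II had a median of 0.067 and 3 below 0. Among the 8, VARS, LARS and IARS had -0.03, -0.04 and -0.05, each smaller than its standard error (0.12, 0.087 and 0.083). Without shScr replicate 1 the class medians were -0.14 and 0.16, and VARS had 0.13. WARS, YARS, MARS and CARS are class I enzymes, AARS and HARS are class II, and EPRS, which holds a domain of each class, was counted in neither. Membership of the multisynthetase complex made less of a split, with a median of -0.045 over its 8 enzymes and -0.080 over the other 12. Without shScr replicate 1 these were -0.070 and -0.011, in the opposite order. No test was made of these medians. In 8 of the 13 amino acid pairs the cytosolic gene had the lower log2 fold change of the pair.

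As a share of all counts, the cytosolic genes took 0.440%, 0.438% and 0.456% in shRNF8 and 0.467%, 0.465% and 0.454% in shScr. The summed CPM of the cytosolic genes over that of the mitochondrial genes was 4.903, 4.89 and 5.04 in shRNF8 and 4.99, 5.54 and 5.44 in shScr. In both measures the groups overlapped in 1 library.

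Other genes of transfer RNA charging and use were read from the same fit. None of the 3 scaffold genes of the complex was called, with a median log2 fold change of 0.001. AIMP2 averaged 43.2 ± 4.30 CPM in shRNF8 and 39.1 ± 11.2 CPM in shScr (SD, n = 3 each, edgeR adjusted p = 0.681). Of 10 accessory genes that correct or complete charging, 9 were tested and 0 called, with a median of 0.16. GATC, a subunit of the mitochondrial enzyme that turns glutamate into glutamine on its transfer RNA, had the smallest p of them (log2 fold change 0.38, edgeR adjusted p = 0.0752). DTD2, which removes wrongly joined amino acids, and YRDC, which modifies transfer RNA, had log2 fold changes of 0.36 and 0.32 (edgeR adjusted p = 0.155 and 0.170).

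Of the 8 cytosolic elongation factor genes 1 was called. EEF1A2, an isoform of the factor that carries charged transfer RNA to the ribosome, measured 256.2, 262.3 and 245.7 CPM in shRNF8 against 369.2, 468.5 and 498.9 CPM in shScr. It was lower by a log2 fold change of -0.81 (SE 0.11, edgeR adjusted p = 0.00551), while EEF1A1, the common isoform, had -0.05 (edgeR adjusted p = 0.813). Of 39 tested genes for processing, modification and export of transfer RNA 1 was called: NSUN2, a transfer RNA methyltransferase, measured 302.3, 309.1 and 334.4 CPM in shRNF8 against 493.4, 398.1 and 417.1 CPM in shScr (log2 fold change -0.47, edgeR adjusted p = 0.0370). EEF1A2 and NSUN2 had every shRNF8 library below every shScr library, as had 12.8% of all genes tested. The fit called 1.57% of all genes tested lower and 0.97% higher.

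None of the 22 subunit genes of RNA polymerase III, which transcribes transfer RNA genes, was called, with a median log2 fold change of 0.17 and the smallest p in POLR3G (log2 fold change 0.52, edgeR adjusted p = 0.0802). None of the 22 tested mitochondrial translation factors was called (median 0.048). Of the 13 tested genes of the eIF2 kinase pathway 0 were called (median 0.005). CEBPB, a partner of ATF4, had the smallest p of them, with 138 ± 7.56 CPM in shRNF8 and 181 ± 16.3 CPM in shScr (log2 fold change -0.39, edgeR adjusted p = 0.0580). ATF4 mRNA was at 290 ± 2.83 CPM in shRNF8 and 298 ± 5.60 CPM in shScr (SD, n = 3 each, log2 fold change -0.04, edgeR adjusted p = 0.826). ATF4 is controlled largely at translation, which these libraries did not measure. By unadjusted edgeR p under 0.05, the genes higher in shRNF8 numbered 0 of the scaffold, 3 of the accessory, 7 of the processing, 7 of the polymerase III, 0 of the mitochondrial factor and 0 of the kinase pathway genes. None of the elongation genes was higher by that p. The genes lower by it numbered 0 of the scaffold, accessory and polymerase III lists, 1 of the elongation, 2 of the processing, 2 of the mitochondrial factor and 1 of the kinase pathway genes. Of all genes tested, 11% were lower and 9.03% higher by that p. DESeq2 called EEF1A2, NSUN2 and CEBPB lower and GATC, POLR3G and CRCP, another polymerase III subunit, higher. It called 0 of the scaffold and 0 of the mitochondrial factor genes, and 4.05% of all genes lower and 2.45% higher.

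These lists, too, changed without shScr replicate 1, in a fit that called 14.3% of all genes lower and 12.8% higher. By edgeR adjusted p, 11 of the 22 polymerase III genes were then called higher in shRNF8 and 0 lower, with a median log2 fold change of 0.25. Of the 39 processing and export genes 14 were called higher and 1 lower, and of the 9 accessory genes 3 were called higher and 0 lower. AIMP2 alone of the 3 scaffold genes was called, as higher. The elongation factors had 1 gene higher and 1 lower, the mitochondrial factors 3 higher and 0 lower, and the kinase pathway 3 higher and 2 lower. With all 6 libraries edgeR called only EEF1A2 and NSUN2 of these lists, both lower. Its calls of higher genes thus rest on leaving out that 1 control library. DESeq2 called GATC, POLR3G and CRCP higher with all 6 libraries.

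Promoter sequences were taken from RefSeq (GRCh38.p14; 250 bases before to 50 bases after the gene start), where 29 members matched by symbol; these starts can differ from those of the count table. The element bound by ATF4 with C/EBP partners has the core TGATGNAA, read here on both strands (TTNCATCA on the other). It was present in 6 of the 29 promoters, 20.7%, against 3.67% of 27305 promoters of the table. Among 10388 promoters of genes tested for RNA the share was 1.61%. That share covers only tested genes with the same symbol in both sources, while members were matched by newer symbols too. Of the 6 members with the element, 5 were cytosolic, of 15 matched (CARS, IARS, MARS, NARS and TARS), and 1 was mitochondrial, of 14 (YARS2). Of the 5 genes with the smallest p, the promoters of CARS, MARS and WARS were read, and those of CARS and MARS held the element. These are shown with the matched letters in capitals, although neither gene passed the test on mRNA after adjustment.
CARS: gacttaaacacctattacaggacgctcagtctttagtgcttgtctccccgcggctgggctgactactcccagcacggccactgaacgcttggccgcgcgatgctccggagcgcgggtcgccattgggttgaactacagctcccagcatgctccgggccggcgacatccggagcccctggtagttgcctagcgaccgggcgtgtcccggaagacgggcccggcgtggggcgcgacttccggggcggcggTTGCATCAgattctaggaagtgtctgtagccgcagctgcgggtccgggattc
MARS: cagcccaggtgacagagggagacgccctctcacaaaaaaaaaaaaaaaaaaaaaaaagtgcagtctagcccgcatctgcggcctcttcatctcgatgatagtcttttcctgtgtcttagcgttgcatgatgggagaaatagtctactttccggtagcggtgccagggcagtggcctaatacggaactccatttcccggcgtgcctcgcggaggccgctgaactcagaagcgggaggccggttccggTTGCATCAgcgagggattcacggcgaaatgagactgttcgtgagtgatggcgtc
CARS lies on the minus strand (chr11:3057374-3057673) and MARS on the plus strand (chr12:57487818-57488117). The match began 2 bases before the start in CARS and 4 bases before it in MARS, and both carry the same 8 letters. The other cytosolic matches lay within 14 bases of the start as well.

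The element and the change in mRNA did not run together in every gene. Over the 5 cytosolic genes with a match the log2 fold changes ran from -0.34 for CARS to 0.07 for NARS, with a median of -0.05. The 10 matched cytosolic genes without it ran from -0.32 for WARS to 0.21 for HARS, with a median of 0.013. Both groups thus hold genes on either side of 0, and WARS was low with no match in this window. A match is a string of letters and not a measured binding site.

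S9.6 peaks were then used to ask where hybrids were called on these genes. In an R-loop the new transcript pairs with its template, which is known to be common near gene starts with many C and G bases and near gene ends. The authors called peaks per library. Peak names in the files for shRNF8 replicates 3 and 4 bear the library names of replicates 1 and 2, though the files hold 50963 and 48546 peaks against 32358 and 34103, so that 4 separate shRNF8 libraries are taken from the labels alone. A start peak here has its summit within 1000 bp of the start given by the count table. Members with a start peak numbered 15, 13, 17 and 12 in shRNF8 replicates 1 to 4 and 19 and 13 in shScr replicates 1 and 2. Over all genes the share with a start peak was 31.7% to 35.1% in shRNF8 and 41.3% and 32.5% in shScr, so the library with the most members, shScr replicate 1, also had the most genes. The mean was 14.25 members in shRNF8 and 16 in shScr, a difference of -1.75 that became 1.25 without shScr replicate 1 and -4.75 without shScr replicate 2. It was 0.5 when the same number of strongest peaks was taken from each library, so the direction depended on the setting.

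**Figure D4:**
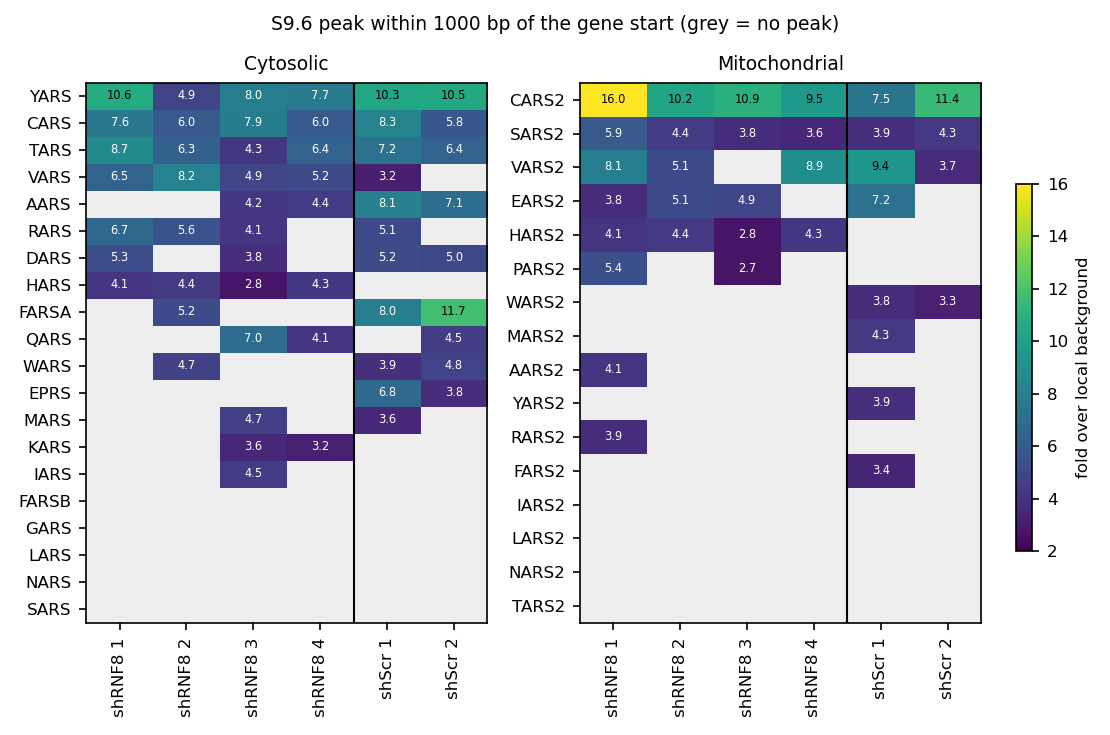
Fold over local background, as deposited by the authors, of the strongest S9.6 peak within 1000 bp of each gene start, in 4 shRNF8 libraries (left of the line) and 2 shScr libraries (right of it), with grey for no peak. CARS2 and YARS have the highest mean folds of the 5 genes filled in all 6 libraries, HARS and HARS2 are filled only left of the line, and EPRS and WARS2 only right of it.

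A start peak was called in at least 1 library for 27 of 36 members (75%, against 60.7% of all genes) and in all 6 for 5 members (13.9%, against 10.1%). HARS and HARS2 have the same start peaks but are each counted, here and in the counts per library, as are such pairs among all genes. The 9 with none were FARSB, GARS, LARS, NARS and SARS of the cytosol and IARS2, LARS2, NARS2 and TARS2 of the mitochondrion. In the RNase-treated libraries 0 members had a start peak and 0 overlapped any peak (0.543% and 3.1% of all genes in at least 1 of 6). An S9.6 peak lay anywhere on the gene in all 6 libraries for 17 members, against 41.6% of all genes, and in no library for 5, against 22.8%. Summits of member start peaks lay a median of 164 bp downstream of the start, with 62.9% of 89 downstream, against 111 bp and 61.1% for all genes. A start on the opposite strand lay within 1000 bp for 12 of 36 members (33.3%, against 21.5% of all genes), among them AARS with DDX19B, YARS with S100PBP and SARS2 with MRPS12. S9.6 peaks carry no strand, so the gene of such a pair to which a hybrid belongs cannot be told apart.

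The 5 genes with a start peak in every S9.6 library were CARS, TARS, YARS, CARS2 and SARS2. CARS2 had the highest mean fold over local background, with 15.95, 10.2, 10.9 and 9.54 in shRNF8 against 7.45 and 11.4 in shScr. The CARS2 summit lay at the same base, -300 bp from the start, in shRNF8 replicates 3 and 4 and in both shScr libraries. Whether the sequence there bears on the fold was not tested. YARS had 10.6, 4.87, 8.04 and 7.75 in shRNF8 against 10.3 and 10.5 in shScr, and CARS had 7.57, 6.0, 7.90 and 6.02 in shRNF8 against 8.28 and 5.80 in shScr. TARS had 8.68, 6.31, 4.26 and 6.38 in shRNF8 against 7.23 and 6.39 in shScr. In all 5 genes the deposited folds of the shRNF8 and shScr libraries overlapped, where 9.65% of the genes called in all 6 had shRNF8 above and 17.3% had shRNF8 below. The two-sided exact permutation p was 0.533 for CARS2, 0.333 for YARS, 0.8 for CARS, 0.6 for TARS and 0.867 for SARS2, and the smallest p that 4 against 2 libraries allow is 0.0667. Divided by the median fold of its library, YARS had 1.64, 0.869, 1.48 and 1.55 in shRNF8 against 1.77 and 1.76 in shScr, below both in each shRNF8 library, as had 15.6% of the genes called in all 6 (two-sided exact permutation p = 0.267).

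HARS and HARS2, the histidine enzymes of the cytosol and the mitochondrion, start 301 bp apart on opposite strands of chromosome 5 and share their promoter. A peak was called at this shared start in all 4 shRNF8 libraries, with folds of 4.09, 4.38, 2.80 and 4.27, and in 0 of 2 shScr libraries. The same was true of 0.951% of all genes, and the pair is 1 locus and not 2 observations. The fold of 2.80 in shRNF8 replicate 3 had a -log10 q of 2.91, and 3 of 4 shRNF8 libraries kept the peak at a -log10 q of at least 5. With the summit held within 500 bp of the start, 3 of 4 shRNF8 libraries kept it for either gene. The summit of shRNF8 replicate 4 lay 818 bp from the start of HARS and 517 bp from that of HARS2. With 4 against 2 libraries an exact permutation test cannot go below p = 0.0667. The promoter of HARS2 (chr5:140691205-140691504, plus strand), which overlaps that of HARS, is shown because the peaks of shRNF8 replicates 1, 2 and 3 overlap it, while that of replicate 4 lies next to it within HARS. It holds no match to the element and has no capitals.
HARS2: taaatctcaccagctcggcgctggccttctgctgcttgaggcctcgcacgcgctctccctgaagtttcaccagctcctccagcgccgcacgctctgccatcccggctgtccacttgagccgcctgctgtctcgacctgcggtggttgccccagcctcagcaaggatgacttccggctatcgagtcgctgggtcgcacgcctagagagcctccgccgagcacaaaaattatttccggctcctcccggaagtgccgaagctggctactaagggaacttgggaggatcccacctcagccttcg
HARS mRNA had a log2 fold change of 0.21 and HARS2 mRNA one of -0.06 (edgeR adjusted p = 0.273 and 0.765), so that neither gene of the pair passed the test.

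Other members had peaks in some libraries only. EPRS and WARS2, the mitochondrial tryptophan enzyme, had a start peak in both shScr libraries and in no shRNF8 library, as had 2.03% of all genes; the folds were 6.76 and 3.80 for EPRS and 3.77 and 3.27 for WARS2. At a -log10 q of at least 5, and with the same number of strongest peaks from each library, either gene kept its peak in 1 shScr library only. AARS had a peak of fold 4.24 and 4.44 in shRNF8 replicates 3 and 4 and none in replicates 1 and 2, against 8.12 and 7.06 in shScr. Both shScr peaks of AARS passed a -log10 q of 5 and neither shRNF8 peak did, and the summits of the shRNF8 peaks lay on different sides of the start. FARSA had 5.22 in shRNF8 replicate 2 alone, against 7.99 and 11.7 in shScr. VARS had 6.48, 8.21, 4.92 and 5.25 in shRNF8, against 3.20 in shScr replicate 1 and none in replicate 2. KARS had peaks in shRNF8 replicates 3 and 4 alone, and neither reached a -log10 q of 5.

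The remaining members with a start peak in 1 to 5 libraries were called in both groups or in few libraries. VARS2 had a peak in 3 shRNF8 and 2 shScr libraries, RARS and EARS2 in 3 shRNF8 and 1 shScr, DARS in 2 and 2, QARS in 2 and 1, WARS in 1 and 2, and MARS in 1 and 1. PARS2 was called in 2 shRNF8 libraries, and IARS, AARS2 and RARS2 in 1 shRNF8 library each. MARS2, YARS2 and FARS2 were called in shScr replicate 1 alone. The start peaks did not follow the mRNA level: the median level was 50.3 CPM per kb in the 9 genes with none, 46.3 in the 14 genes called in 1 to 3 libraries and 46.2 in the 13 genes called in 4 to 6.

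At the gene ends (1000 bp before to 5000 bp after) a peak was called in all 6 libraries for 10 members, against 15.2% of all genes, and in at least 1 for 23 (63.9%, against 53.9%). The 10 were CARS, HARS, KARS, MARS, QARS, SARS and WARS of the cytosol and AARS2, SARS2 and TARS2 of the mitochondrion. In 7 of them the start of another gene lay within 1000 bp of a summit, such as DND1 behind HARS, ADAT1 behind KARS and DDIT3 behind MARS, so the gene to which these peaks belong cannot be told apart. CARS, SARS and WARS had no other start there. At the end of CARS the fold was 6.12, 5.90, 7.03 and 8.88 in shRNF8 against 12.7 and 9.02 in shScr, lower in every shRNF8 library (two-sided exact permutation p = 0.0667, the smallest possible). At the end of MARS it was 11.4, 9.24, 13.4 and 13.6 in shRNF8 against 17.2 and 14.6 in shScr (two-sided exact permutation p = 0.133). Of the genes with an end peak in all 6 libraries, 13.8% had every shRNF8 value below both shScr values and 9.25% above. All these end folds are as deposited and, unlike the start folds, were not divided by a library median. The median fold of start peaks was 4.99 in shRNF8 replicate 4 and 5.97 in shScr replicate 2. The gaps between the groups at the ends of CARS and MARS are thus shown for deposited folds only.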

How the data were processed

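The series holds 21 samples, of which the 6 RNA, 6 S9.6 and 6 RNase-treated libraries entered the analysis; input libraries are not analysed here. Per the file headers, the authors deposited raw fragment counts per gene made with featureCounts on hg38 with strand not set, so fragments from the stretch where HARS and HARS2 overlap cannot be assigned by strand. The submitters' processing notes name MACS2 2.2.7.1, Bowtie2 2.2.6, STAR 2.7.9a, Subread 2.0.1 and Trim Galore 0.6.6, among others, with no roles. The authors deposited 1 peak list per DRIP library, with a score, a fold over local background (a linear ratio), and the p-value and q-value as -log10. The lowest -log10 q was 2.00 to 2.28 across lists, and how deeply the DRIP libraries were sequenced is unknown.

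Counts were fitted over all genes in edgeR 4.0.16 (R 4.3.3) with filterByExpr, TMM scaling, glmQLFit (robust) and glmQLFTest, and no covariate beside the group. A gene was called where its p after Benjamini-Hochberg adjustment was under 0.05. The biological coefficient of variation was 12.4%. DESeq2 1.42.0 and limma 3.58.1 (voom) served as alternatives. The fit and the peak assignment were tested on simulated data. Peaks were assigned to starts and ends of 13988 tested genes with 1 locus on chromosomes 1 to 22 and X in Python 3.11.15 with pandas 2.3.3. Peak folds were compared by two-sided exact permutation over 15 splits. Named were the called members, those with the smallest p in each compartment, the 2 highest and 2 lowest by level per length, members with a start peak in 1 to 6 libraries and up to 3 genes of each further list. RARS, KARS, FARSB, PARS2, QARS, SARS, EEF1A1 and the end peaks were named after their values were seen. The members and lists were chosen with earlier results of these data known. The promoter of 1 member is not reported here.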

Additional observations from a re-analysis of the deposited data

How the results depend on the processing

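The count of members lower in shRNF8 was 1 with all libraries, 0 with scaling by library size alone and 5 with the DESeq2 Wald test. Other scalings, other filters and limma-voom left it at 1. Over fits that each lacked 1 library it ran from 0 to 5 and the count of members higher in shRNF8 from 0 to 8. The upper end of both came without shScr replicate 1, when 2042 of all genes were called lower and 1823 higher, while without any other library 29 to 78 were called lower and 17 to 54 higher, against 220 and 136 with all 6. The median log2 fold change ran from -0.07 to -0.02 over cytosolic and from -0.046 to 0.126 over mitochondrial genes. The mean number of members with a start peak in shRNF8 minus shScr ran from -4.75 to 1.25 with each S9.6 library left out, and from -3.75 (summit within 500 bp) to 0.5 with other windows and thresholds. The start-peak fold of CARS, 0.16 lower in shRNF8 as deposited, was 0.029 higher when divided by the median fold of each library, and the cause was not tested. Same-numbered RNA libraries did not deviate together (correlations -0.054, 0.108 and -0.233), so the numbers were not read as pairs. A fit with the replicate number as a block gave 1 member lower and 0 higher, with the log2 fold change of AARS and of the other named genes in the same direction; of the S9.6 libraries, shRNF8 replicates 1 and 2 against the same-numbered shScr libraries gave a difference of -2 members. With 3 libraries a group the standard errors of the members' log2 fold changes were 0.081 (QARS) to 0.18 (PARS2), and the read depth behind the peaks is unknown.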
